A study of Mus musculus with 55 samples.

Results

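Described here are 8 genes of the Ugt1a locus among the 37620 genes quantified, Ugt1a10, Ugt1a9, Ugt1a7c, Ugt1a6b, Ugt1a6a, Ugt1a5, Ugt1a2 and Ugt1a1. These members were taken by their symbols and not by their values, though with earlier results of these data known. They were measured by RNA sequencing of livers from 55 untreated male mice of 29 Collaborative Cross (CC) lines, which are recombinant inbred lines bred from the classical strains NZO/HlLtJ, NOD/ShiLtJ, A/J, C57BL/6J and 129S1/SvImJ and the wild-derived strains WSB/EiJ, PWK/PhJ and CAST/EiJ. Of the lines, 8 had 1 mouse, 16 had 2 and 5 had 3, and the mice were 8 to 11.9 weeks old. Mice of a line are nearly identical genetically, and in 20 of the 21 lines with mates they were also of the same age, so that the parts of genotype and age in a difference between lines cannot be told apart. Values are FPKM, the fragments per kilobase of effective transcript length, scaled to the number of mapped fragments of the library, as estimated by RSEM, which makes levels of different genes comparable.

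UDP-glucuronosyltransferases (UGTs) attach glucuronic acid from UDP-glucuronate to bilirubin, hormones, drugs and dietary phenols, which makes them soluble for excretion in bile and urine. The Ugt1a enzymes come from a single locus in which each member has its own promoter and its own first coding exon, which forms the substrate-binding part, while the remaining exons, which bind the sugar donor and anchor the protein in the endoplasmic reticulum membrane, are common to all. Ugt1a1 is the enzyme that conjugates bilirubin, and its loss causes severe jaundice. Ugt1a6 enzymes act mainly on small planar phenols, and Ugt1a9 is known for the conjugation of bulkier phenols.

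On the mouse genome build NCBIM37 the locus lies on the plus strand of chromosome 1. The variable coding exons follow each other from Ugt1a10, chr1:89951986-89952911, over Ugt1a9, chr1:89967375-89968253, Ugt1a7c, chr1:89991639-89992553, Ugt1a6b, chr1:90003516-90004374, Ugt1a6a, chr1:90035048-90035906, Ugt1a5, chr1:90062587-90063478, and Ugt1a2, chr1:90097176-90098075, to Ugt1a1, chr1:90108534-90109446. The coding parts of these exons hold between 849 and 870 bases. Their first 60 coding bases, shown because they are what tells the members apart at the start of the protein, are printed with the start codon in capitals.
Ugt1a10: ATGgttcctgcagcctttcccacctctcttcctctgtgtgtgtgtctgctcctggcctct
Ugt1a9: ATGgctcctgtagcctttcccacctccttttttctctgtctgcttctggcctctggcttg
Ugt1a7c: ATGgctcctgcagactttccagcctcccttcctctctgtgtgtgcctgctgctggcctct
Ugt1a6b: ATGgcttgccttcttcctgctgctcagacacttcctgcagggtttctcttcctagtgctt
Ugt1a6a: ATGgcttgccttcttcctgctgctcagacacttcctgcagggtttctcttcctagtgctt
Ugt1a5: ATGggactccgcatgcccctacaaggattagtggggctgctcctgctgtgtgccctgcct
Ugt1a2: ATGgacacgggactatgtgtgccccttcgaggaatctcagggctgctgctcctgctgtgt
Ugt1a1: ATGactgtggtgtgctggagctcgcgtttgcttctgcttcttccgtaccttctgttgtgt

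Ugt1a6b and Ugt1a6a were identical over these 60 bases. In global alignments of the whole coding part of the variable exon they shared 97.0% of 858 positions, and Ugt1a10 and Ugt1a9 shared 91.3% of 855. Ugt1a5 and Ugt1a2 shared 81.4%, and the median over all 28 pairs was 56.7%. The members are followed by 4 exons that all 8 use, so that a fragment from within these exons fits every member.

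**Figure D1:**
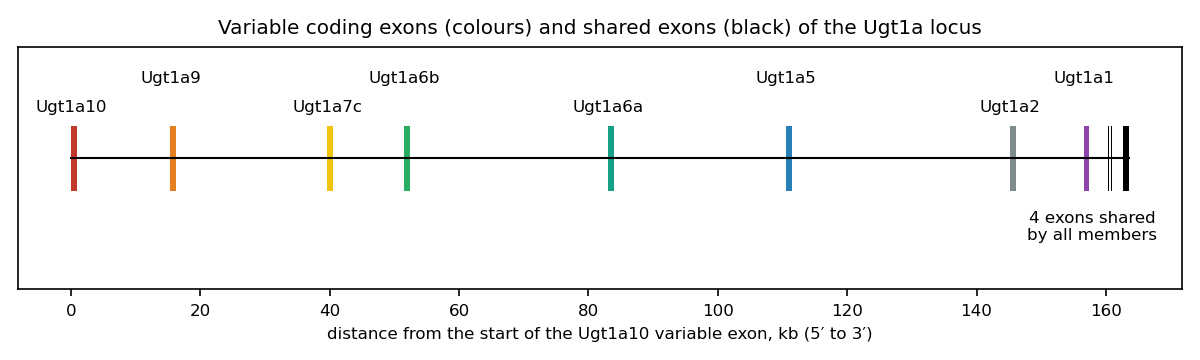
Map of the locus with the distance from the start of the Ugt1a10 variable exon in kb on the horizontal axis, the variable coding exons of the 8 members as coloured bars (widened to at least 0.9 kb to be visible) and the 4 shared exons in black. The members lie in a row, and the shared exons follow the last of them, Ugt1a1.

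RSEM divides the fragments of the shared exons among the members by maximum likelihood, so the members' values rest on the fragments that reach a variable exon and are not independent measurements. Sequencing reads were 50 bases long. Of the 877 windows of this length in the variable exon of Ugt1a10, 51 also occur in that of another member (5.8%, all in Ugt1a9). For Ugt1a6b and Ugt1a6a the shared part was 384 of 810 windows (47.4%), for Ugt1a5 and Ugt1a2 it was 7.9%, and for Ugt1a1 it was 0. The values of Ugt1a6b and Ugt1a6a are therefore less certain than that of Ugt1a1, and so is any low value beside a high value of its closest relative.

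The 55 libraries held between 20.5 and 34.0 M estimated fragments, of which the locus took 13008 to 39821, or 0.0489% to 0.14%. All 5 hepatocyte markers had a median of at least 1 FPKM, with a summed level of 19800 to 73100 FPKM. Of 5 markers of intestinal epithelium, where some Ugt1a members are also made, Cdx1 was at 0 in every mouse, Cdx2 reached 0.02 FPKM and Vil1 0.8, while Lgals4 lay between 0.15 and 10.2 FPKM and Fabp2 between 32.0 and 165. For 41 of the 47 mice with mates, the mouse most correlated with them over 11284 genes was a mate, and the exceptions were 5 mice of IL-1052 and IL-2750, which were nearest to each other's line, and 1 of the 2 mice of IL-2146, which was nearest to IL-1141. In bulk liver, fewer cells of a type and less RNA per cell cannot be told apart.

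Over the 29 line means, the locus was led by Ugt1a9 with 181 ± 105 FPKM (SD over lines, n = 29) and Ugt1a1 with 127 ± 53.5. Ugt1a6a followed with 47.7 ± 13.1, Ugt1a6b with 40.4 ± 18.6 and Ugt1a10 with 35.2 ± 59.9. Ugt1a5 had 12.8 ± 6.02, Ugt1a7c 2.36 ± 1.26 and Ugt1a2 0.0505 ± 0.0486. In a two-sided sign-flip permutation test on log2(FPKM + 1) over lines, with Benjamini-Hochberg adjustment over the 7 neighbouring pairs of this order, Ugt1a9 and Ugt1a1 could not be separated (higher in 18 of 29 lines, mean difference 0.327 on the log2 scale, adjusted p = 0.181). Ugt1a1 was above Ugt1a6a in 29 of 29 lines by 1.34 on the log2 scale (adjusted p = 2.33e-05).

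Ugt1a6a was above Ugt1a6b in 22 of 29 lines by 0.31 on the log2 scale in the same permutation test (adjusted p = 0.0207). This order turned when isoforms were given to the member in whose exon they start, which left Ugt1a6a above Ugt1a6b in 8 of 29 lines, with a mean difference of -0.203 (permutation test, adjusted p = 0.00258). Ugt1a6b was above Ugt1a10 in 22 of 29 lines by 2.26 on the log2 scale (permutation test, adjusted p = 3.5e-05), although their means differed little in FPKM. Ugt1a10 was above Ugt1a5 in 7 of 29 lines (mean difference -0.664, permutation test, adjusted p = 0.219). Ugt1a5 stood above Ugt1a7c in 27 of 29 lines and Ugt1a7c above Ugt1a2 in 29 of 29 (permutation tests, adjusted p = 2.33e-05 for both).

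The estimated counts, rounded, of the 47 mice in lines with at least 2 mice (21 lines) served to test each gene for differences among lines, by the quasi-likelihood test of edgeR. With Benjamini-Hochberg adjustment over 15285 genes and a threshold of 0.05, 88.5% of all genes differed among lines, and 7 of the 8 members did, so that the count of members is no more than the background. The members differed from each other in their p-values. These also depend on the level of a gene and on the spread between mates, and do not measure how far the lines lay apart alone. Ugt1a10 had the smallest p-value of all 15285 genes (adjusted p = 3.49e-25). Ugt1a6b was in place 49 by p-value (adjusted p = 2.14e-14) and Ugt1a9 in place 128 (adjusted p = 9.1e-12). Ugt1a1 (adjusted p = 9.48e-06), Ugt1a5 (adjusted p = 9.91e-05), Ugt1a6a (adjusted p = 0.000168) and Ugt1a7c (adjusted p = 0.00127) also passed in edgeR. Ugt1a2, with at most 12.3 estimated counts in a mouse, did not (adjusted p = 0.55), and a difference among lines was not detectable at this depth.

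The share of the variance between lines was also expressed as an intraclass correlation, computed on van der Waerden scores, by which each rank is replaced with a normal quantile. It was 0.922 for Ugt1a10, 0.917 for Ugt1a6b and 0.873 for Ugt1a9, against a median of 0.592 over 5949 genes with enough distinct values. Only 11 of these genes had a higher value than Ugt1a10 and 13 a higher value than Ugt1a6b. The place of Ugt1a6b holds for the genes as deposited. Its value was 0.844, below that of Ugt1a9, with isoforms given to the member in whose exon they start. The jackknife standard errors, from leaving out each line in turn, were 0.0528 for Ugt1a10 and 0.0292 for Ugt1a6b, so these places are approximate. Ugt1a1 had 0.67 and Ugt1a6a 0.665, while Ugt1a5 had 0.513 and Ugt1a7c 0.503. The jackknife standard errors were 0.111 for Ugt1a1, 0.102 for Ugt1a6a, 0.199 for Ugt1a5 and 0.188 for Ugt1a7c. With these errors, none of these members could be separated from the median of all genes.

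**Figure D2:**
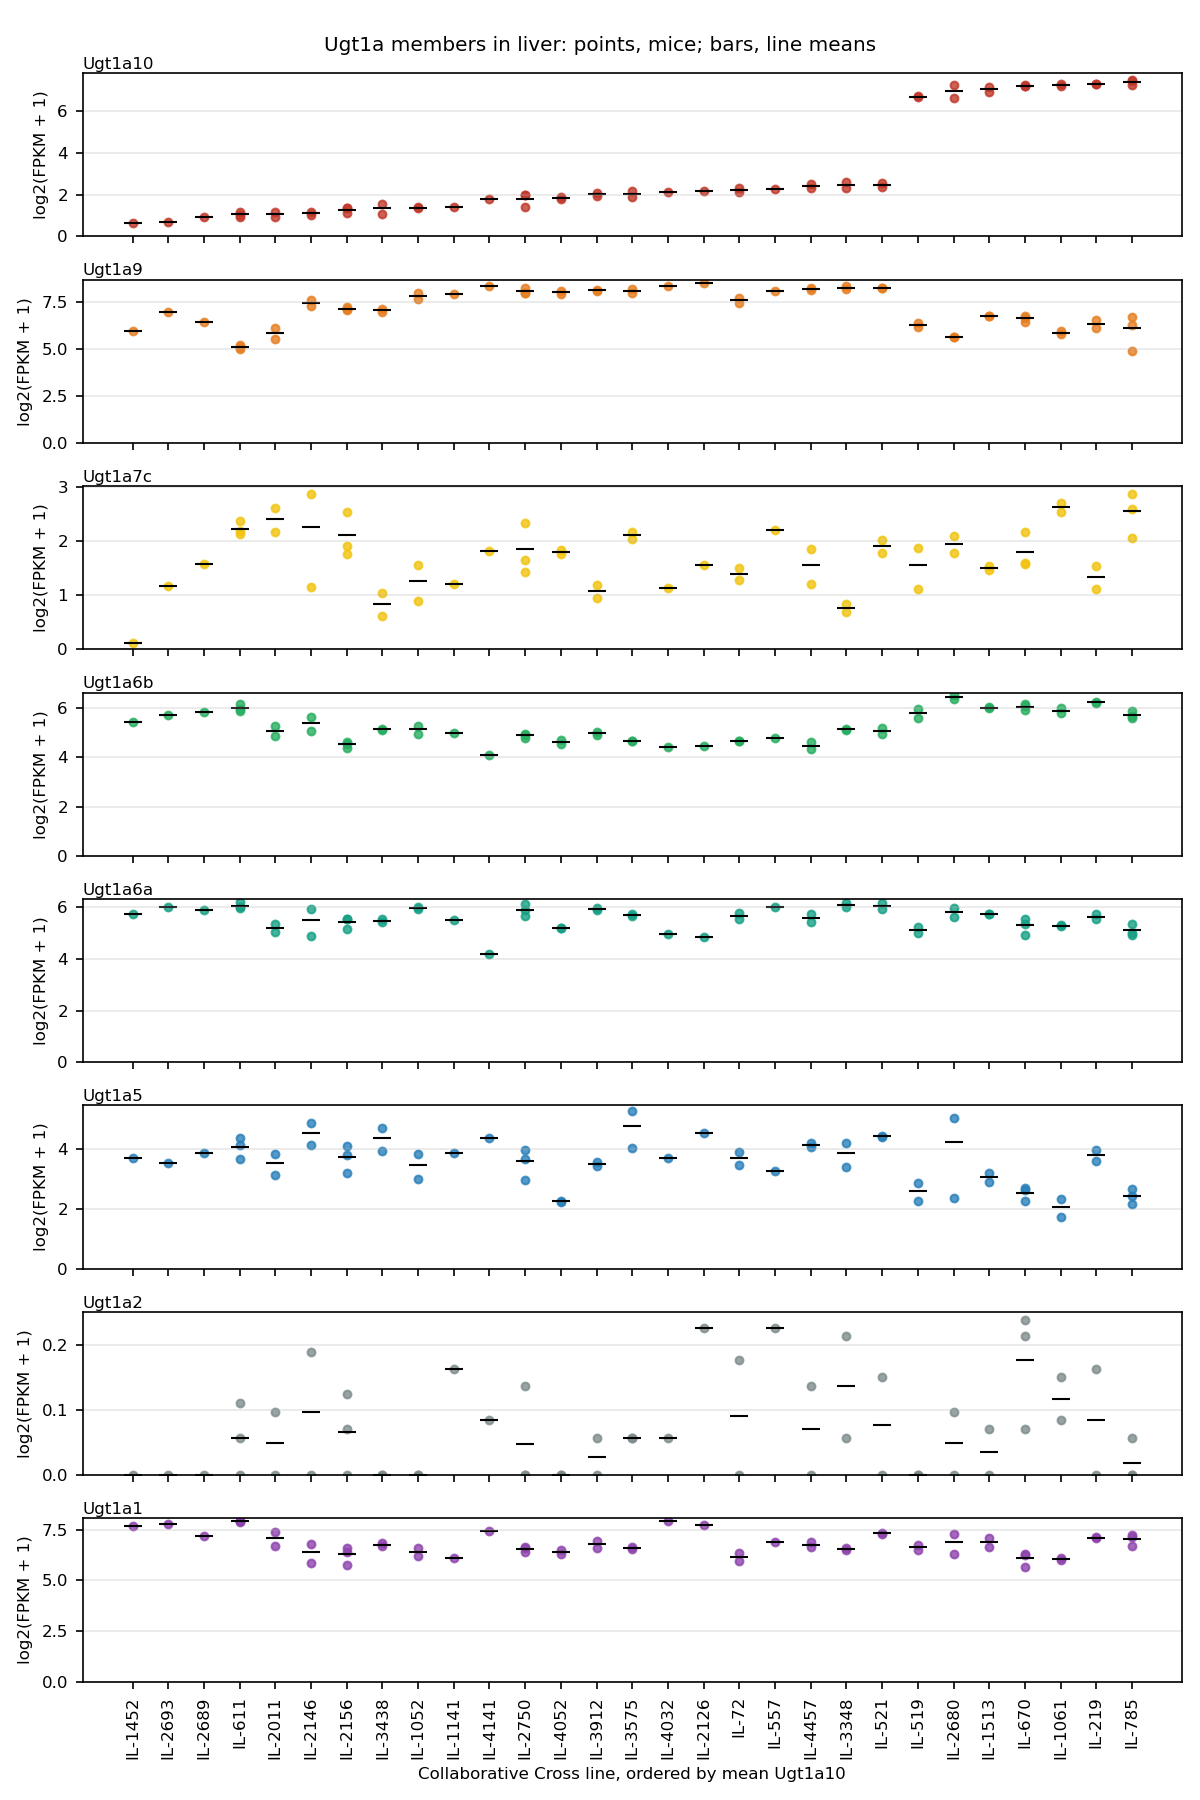
FPKM of each member in each mouse on a log2(FPKM + 1) scale (points, vertical axis starting at 0) with the line means (bars), for 29 lines ordered by their mean of Ugt1a10. The 7 lines on the right have Ugt1a10 means of 100.7 FPKM and more, the other 22 have means of at most 4.56, and no line lies between.

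Ugt1a10 fell into separate levels. In 22 lines with 39 mice it ranged from 0.56 to 5.01 FPKM with a median of 2.42, and in 7 lines with 16 mice from 96.2 to 175 FPKM with a median of 147. Between the highest and the lowest line mean lay a ratio of 295. Of 8535 genes with a mean of at least 2 FPKM and no line at 0, 76 had a larger ratio. The largest step between neighbouring line means was 4.19 on the log2(FPKM + 1) scale, between IL-521 and IL-519, whereas no other member had a step above 0.668. No test was run between the lines on the 2 sides of this step, since they were separated by the measurement itself.

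In IL-785 the 3 mice had 171, 175 and 149 FPKM of Ugt1a10. The mice of IL-670 had 148, 144 and 146, those of IL-219 had 152 and 153, and those of IL-1061 had 154 and 143. IL-1513 had 140 and 120 FPKM, IL-519 had 98.9 and 103, and IL-2680 had 151 and 96.2, the widest spread between mates of these lines. The lowest of these 16 mice, with 96.2 FPKM, stood far above the highest of the other 39, with 5.01, and no line had mates on both sides of the step. At the other end, the single mice of IL-1452, IL-2693 and IL-2689 had 0.56, 0.6 and 0.93 FPKM, and the mice of IL-521, the highest of the 22, had 4.95 and 4.16. These low values rested on 26.6 to 309 estimated fragments per mouse.

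Ugt1a9 was spread more evenly over the lines. IL-2126, a line of 1 mouse, was highest with 362 FPKM, followed by IL-4141 with 325 and IL-4032 with 322, also of 1 mouse each. Among lines with mates, IL-3348 led with 304 ± 24.8 FPKM (SD, n = 2). The lowest mean, 33.5 ± 2.34 (SD, n = 3), was that of IL-611, whose mice had 31.0, 35.6 and 33.9 FPKM. The ratio of highest to lowest line mean was 10.8. In IL-785 the mates stood far apart, with 29.0, 102 and 76.8 FPKM, which gave the largest SD of any line for Ugt1a9.

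Ugt1a1 varied less, with a ratio of 3.7 between line means. Its highest mean, 243 ± 5.81 FPKM (SD, n = 3), was again in IL-611, where the 3 mice had 236, 247 and 245 FPKM, so the line with the least Ugt1a9 had the most Ugt1a1. The lowest mean, 65.6 ± 3.02 FPKM (SD, n = 2), was in IL-1061, with 63.5 and 67.7. Of the 8 lines with the highest Ugt1a1, 6 were lines of 1 mouse, which have no spread of their own.

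Ugt1a6b was lowest in IL-4141, with 16.2 FPKM in its only mouse, and its line means rose to 86.6 ± 5.47 in IL-2680 (SD, n = 2), where the mice had 90.5 and 82.7. Ugt1a6a ranged from 17.2 FPKM, also in IL-4141, to 67.2 ± 5.49 in IL-3348 (SD, n = 2). IL-4141 was thus the lowest line for both Ugt1a6 members, while its Ugt1a9 was the second highest. The ratios of highest to lowest line mean were 5.34 for Ugt1a6b and 3.92 for Ugt1a6a.

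Ugt1a5, Ugt1a7c and Ugt1a2 were the least abundant members. Ugt1a5 ranged from 3.14 ± 1.17 FPKM in IL-1061 to 26.5 ± 16.0 in IL-3575 (SD, n = 2 each). The mice of IL-3575 had 15.2 and 37.8 FPKM, and the second, the highest mouse of all, also held 367 FPKM of summed markers of exocrine pancreas, against 0.05 in its mate. The mates of IL-2680 had 31.8 and 4.17 FPKM of Ugt1a5. Their Ugt1a1 (156 and 77.4 FPKM), Ugt1a10 (151 and 96.2) and summed hepatocyte markers (66300 and 32900) were also lower in the second mouse, whereas Ugt1a9 (47.7 and 49.1) and Ugt1a6b (82.7 and 90.5) were not, and the part of the marker change in these values was not tested. With each mouse left out in turn, the call of Ugt1a5 for a difference among lines held (edgeR adjusted p at most 0.000285). The mice of IL-3575 and IL-2680 named here were not left out together. The part of the pancreatic RNA in the value of IL-3575 was not tested.

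Ugt1a7c had its highest line mean, 5.17 ± 0.474 FPKM (SD, n = 2), in IL-1061. Its lowest, 0.09 FPKM, was in the single mouse of IL-1452, on 7.36 estimated fragments. Ugt1a2 was at 0 in 26 of 55 mice and never above 0.18 FPKM, so the locus made next to none of it in these livers.

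The order of the lines was only coarsely fixed by the mice. Among the 20 neighbouring pairs in the order of the 21 lines with mates, the ranges of the mice overlapped in 16 pairs for Ugt1a10, Ugt1a9 and Ugt1a6b, in 18 for Ugt1a6a and Ugt1a1, in 19 for Ugt1a5 and in all 20 for Ugt1a7c and Ugt1a2. Neighbours in these orders therefore mostly did not differ beyond the spread of their mice.

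The summed FPKM of the 8 members had a smaller ratio between lines than any member with a mean of at least 2 FPKM. It lay between 277 in IL-2011 and 650 in IL-2126, a ratio of 2.35, with a mean of 446 ± 90.4 (SD over lines, n = 29) and an intraclass correlation of 0.773. The lines with the lowest sums, IL-2011 and IL-2156 (298 FPKM), also held 125 to 208 FPKM of summed bile duct markers, against a median mouse of 27.5, and 19800 to 47000 FPKM of hepatocyte markers, against a median of 50700. Of the bile duct markers, Spp1 reached 206 FPKM in a mouse and no other more than 6.32. IL-4457 held 125 and 119 FPKM of summed bile duct markers at a summed Ugt1a level of 488 FPKM. IL-1513 held 36500 and 35000 FPKM of hepatocyte markers at a summed Ugt1a level of 480 FPKM. The part of the cell composition in these sums was not tested. Ugt1a9 was the highest member in 17 lines, Ugt1a10 in 7 and Ugt1a1 in 5 (IL-611, IL-1452, IL-2011, IL-2689 and IL-2693). By mouse, Ugt1a9 took from 7.14% to 63.1% of the sum, Ugt1a1 from 12.4% to 58.3% and Ugt1a10 from 0.127% to 43.3%. Ugt1a6a and Ugt1a6b took at most 16.8% and 23.7%. In IL-611, Ugt1a1 made up 54.3%, 58.2% and 58.3% of the sum in the 3 mice, while in IL-785 Ugt1a10 made up 43.3%, 33.3% and 32.2%.

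**Figure D3:**
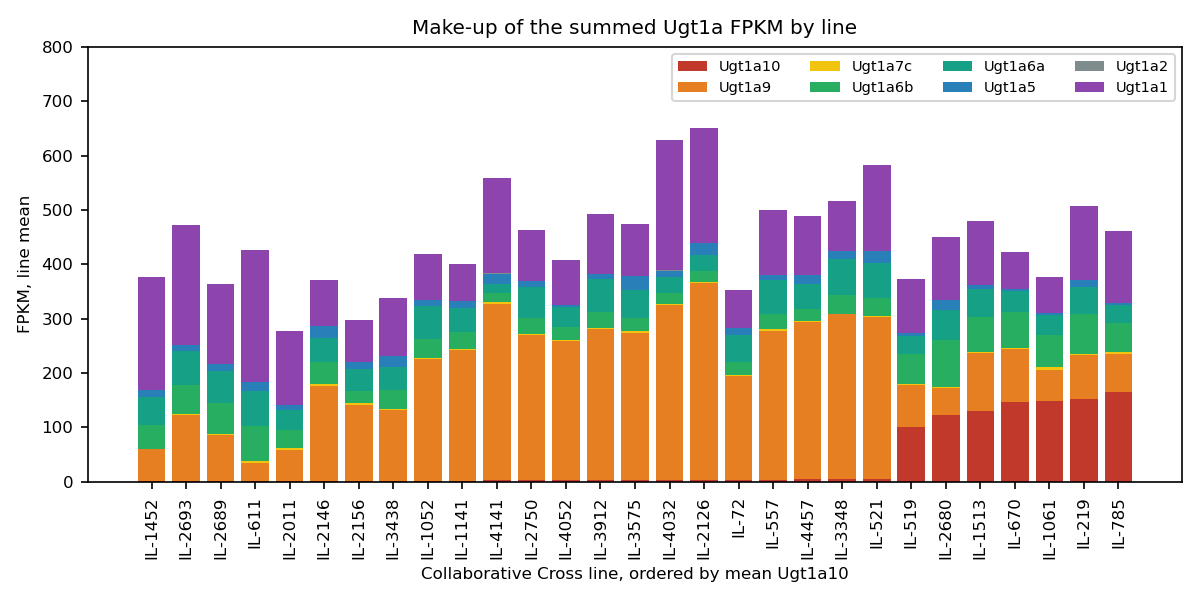
Stacked line means in FPKM of the 8 members (vertical axis from 0) for the 29 lines, ordered by their mean of Ugt1a10. The column heights stay between 277 and 650 FPKM, while the leading colour changes among Ugt1a9 in 17 lines, Ugt1a10 in 7 and Ugt1a1 in 5.

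Correlations among members were computed over line means of log2(FPKM + 1), with two-sided permutation p-values adjusted over the 28 pairs. Since fragments of shared exons are divided among the members, a part of any relation between them can come from this division, which was not tested. Among the 21 pairs without Ugt1a10, only Ugt1a9 and Ugt1a6b passed under the gene assignment as deposited. Lines with more Ugt1a9 had less Ugt1a6b (r = -0.804, rho = -0.804, n = 29 lines, permutation p = 1e-05 for each, the smallest they can give, adjusted p = 0.00028). Without IL-611 and IL-2680, the lines farthest from the median of Ugt1a9, r was -0.765.

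The relation of Ugt1a9 and Ugt1a6b was also present within the 22 lines with little Ugt1a10 (r = -0.726, rho = -0.717, adjusted permutation p = 0.002 and 0.0027 over 20 relations within lines). It was not seen within the 7 others (r = -0.27, exact permutation p = 0.557), where 7 lines leave little power. With isoforms counted for the member in whose exon they start, r over the 29 lines was -0.555 (permutation p = 0.00131), and Ugt1a6a and Ugt1a6b then rose together (r = 0.798, rho = 0.74, permutation p = 1e-05 and 3e-05). Ugt1a9 then also fell with Ugt1a6a by r = -0.537 (adjusted permutation p = 0.0195), though not by rank (rho = -0.455, adjusted permutation p = 0.126), so the relation to Ugt1a9 is particular to neither under that grouping. As deposited, Ugt1a6a and Ugt1a6b had r = 0.347 (permutation p = 0.0641).

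For Ugt1a10 no correlation with another member over all lines is given, because its lines fall into separate levels. Within the 22 lines with little of it, Ugt1a10 rose with Ugt1a9 (r = 0.786, rho = 0.822, adjusted permutation p = 0.0002 for each over 20 relations), also without IL-1452 and IL-2693 (r = 0.761). It fell with Ugt1a6b in these lines (r = -0.655, rho = -0.599, adjusted permutation p = 0.0058 and 0.0209). Without IL-1052, IL-2750 and IL-2146, a choice made after the similarity of the mice was seen, these correlations were 0.82 and -0.638. Ugt1a6a and Ugt1a6b rose together within the 22 lines (r = 0.653, rho = 0.601, adjusted permutation p = 0.0058 and 0.0209). Ugt1a10 and Ugt1a2 passed by rank only (rho = 0.576, adjusted permutation p = 0.0214) and not by r = 0.499 (adjusted permutation p = 0.0575), with Ugt1a2 near 0 throughout. In these 39 mice Ugt1a10 amounted to 0.488% to 3.77% of Ugt1a9, with a median of 1.14%, and their variable exons share 91.3% of positions, so that a share of the low Ugt1a10 values that is due to fragments of Ugt1a9 cannot be told apart from Ugt1a10 itself. Within the 7 lines with much Ugt1a10, no relation of Ugt1a10 with another member passed (7 relations, lowest unadjusted exact permutation p = 0.289 for Ugt1a7c, r = 0.465), and r with Ugt1a9 was 0.0175. In these 7 lines Ugt1a6a and Ugt1a6b passed by rank (rho = 0.893, adjusted permutation p = 0.041) and not by r = 0.853 (adjusted permutation p = 0.0548).

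**Figure D4:**
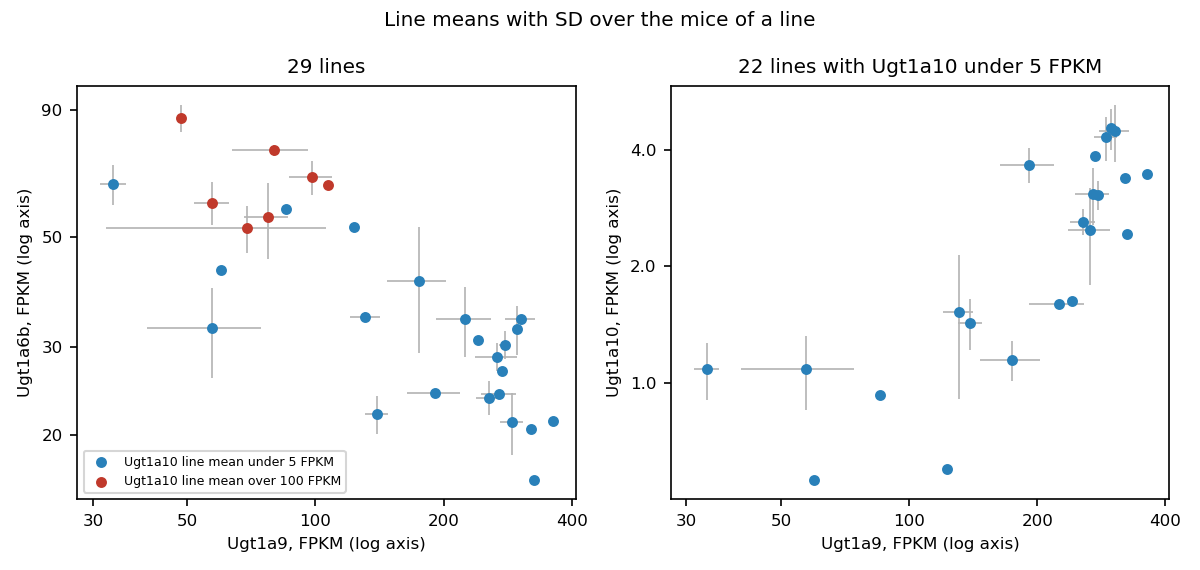
Line means in FPKM on log axes with the SD over the mice of a line, for Ugt1a6b against Ugt1a9 in 29 lines (left) and for Ugt1a10 against Ugt1a9 in the 22 lines with Ugt1a10 under 5 FPKM (right). Ugt1a6b falls as Ugt1a9 rises (r = -0.804 on the log2 scale), and low Ugt1a10 rises with Ugt1a9 (r = 0.786).

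None of 16 correlations of a member's line mean with the mean body weight or age of the line passed the permutation test, adjusted or not, which does not show that they are unrelated. Apart from Ugt1a10, whose lines fall into separate levels, the largest by r was Ugt1a5 with age (r = 0.333, rho = 0.363, unadjusted permutation p = 0.0776 and 0.0524). The largest by rank was Ugt1a6a with body weight (r = 0.305, rho = 0.366, unadjusted permutation p = 0.107 and 0.052). Their adjusted permutation p-values were 0.568 for r and 0.42 for rho in both cases (n = 29 lines).

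RSEM also estimated the isoforms of each gene and the percentage of its gene that each isoform takes. Ugt1a9, Ugt1a5, Ugt1a2 and Ugt1a1 have 1 isoform each in the annotation. Of the isoforms of Ugt1a10, ENSMUST00000113142 with all 5 exons took 88.5% on average and the shorter ENSMUST00000138182 11.4%, with little of the variance between lines (intraclass correlations 0.201 and 0.192). In lines with little Ugt1a10 these percentages rest on few fragments. In IL-2011 the shorter isoform took 0% and 18.5%, on 0 and 3.55 fragments. The part of such low counts in these intraclass correlations was not tested.

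Ugt1a7c was mostly assigned to an isoform annotated as a target of nonsense-mediated decay, the pathway that removes transcripts with a premature stop. This isoform, ENSMUST00000126203, took 90.6% on average, and the full-length ENSMUST00000058237 took 9.24%. The full-length isoform reached at most 0.38 FPKM and 37.0 estimated fragments in a mouse. Its 100% in IL-1452 rests on the 7.36 fragments of that mouse. Most of the low Ugt1a7c level was therefore not assigned to a transcript that encodes the whole enzyme.

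Ugt1a6b was assigned to ENSMUST00000113138 with 95.3% on average and with 4.67% to ENSMUST00000113137, which starts just before the coding exon and reached 15.9 ± 3.85% in IL-3575 (SD, n = 2). The 6 isoforms of Ugt1a6a differed more among lines. ENSMUST00000113134, which starts in an upstream exon of Ugt1a6a, took 73.0% on average, ENSMUST00000169501 13.8% and ENSMUST00000014263, which starts just before the coding exon, 6.21%.

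ENSMUST00000169501 is a transcript filed under Ugt1a6a that begins at the upstream exon of Ugt1a6b. It uses chr1:90003516-90003935, which ends with position 419 of the 858 coding positions of the Ugt1a6b exon. From there it continues at chr1:90035468-90035906, which begins with position 420 of the Ugt1a6a exon, so that it holds the first part of the exon of Ugt1a6b and the last part of that of Ugt1a6a. The 60 bases around the join are printed with the part from Ugt1a6b in capitals.
join of ENSMUST00000169501: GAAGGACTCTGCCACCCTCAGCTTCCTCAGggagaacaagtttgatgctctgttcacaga

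The exons of Ugt1a6b and Ugt1a6a differ at 26 of 858 coding positions, 19 of them before the join and 7 after it. The join lies inside a run of 251 positions without a difference, 361 to 611, so fragments within this run fit Ugt1a6b, Ugt1a6a and the joined isoform alike. In the genome the part from Ugt1a6b is followed by GG in place of the usual GT of a splice donor, and the part from Ugt1a6a is preceded by AG. The positions 261 to 360, with 14 differences the densest stretch, are printed for both, with the differing bases in capitals, because they carry most of what separates the exons.
Ugt1a6b: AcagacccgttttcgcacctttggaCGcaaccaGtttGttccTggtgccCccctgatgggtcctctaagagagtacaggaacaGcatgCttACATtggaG
Ugt1a6a: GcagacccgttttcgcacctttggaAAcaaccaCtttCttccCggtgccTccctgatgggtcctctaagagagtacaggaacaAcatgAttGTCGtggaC
These stretches lie at chr1:90003777-90003876 and chr1:90035309-90035408.

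Whether the joined isoform is a real transcript cannot be settled from these estimates, and its values are the fragments that RSEM assigned to it. By this assignment it was at 0 in all 26 mice of 14 lines and above 0 in 15 lines, with an intraclass correlation of its percentage of 0.879. Its highest line mean was 38.1 ± 6.11% of Ugt1a6a in IL-4457 (SD, n = 2), where the mice had 33.8% and 42.4%. In the mice of IL-3575 it took 32.1% and 32.9%, and in those of IL-521 29.8% and 33.5%. The 29 mice of the 15 lines had between 0.07 and 1508 estimated fragments of it, with a median of 936. The only line whose mates disagreed was IL-2146, with 17.7% of Ugt1a6a (793 fragments) in 1 mouse and 0% (0.07 fragments) in the other. The latter was the mouse that lay nearest to IL-1141, whose single mouse held the joined isoform at 21.3% (543 fragments).

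The 14 lines with the joined isoform at 0 included all 7 lines with much Ugt1a10. This is a count with no test. The other 7 were IL-611, IL-1452, IL-2011, IL-2689, IL-2693, IL-4032 and IL-4141. When the isoforms of Ugt1a6a that start in Ugt1a6b, the joined one and the rare ENSMUST00000113135 (0.243% of Ugt1a6a on average), were counted for Ugt1a6b, the mean of Ugt1a6b rose from 40.4 ± 18.6 to 47.6 ± 15.6 FPKM and that of Ugt1a6a fell from 47.7 ± 13.1 to 40.4 ± 11.3 (SD over lines, n = 29). The intraclass correlation of Ugt1a6b moved from 0.917 to 0.844.

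ENSMUST00000014263 took 54.3% of Ugt1a6a in the single mouse of IL-4032, on 1056 fragments, and 41.0% in that of IL-4141. In IL-611 it took 17.7% on average, with 12.5% to 23.0% in the 3 mice, and in IL-2011 18.2% and 22.8%. It was at 0 in every mouse of 9 lines. The intraclass correlation of its percentage was 0.759.

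**Figure D5:**
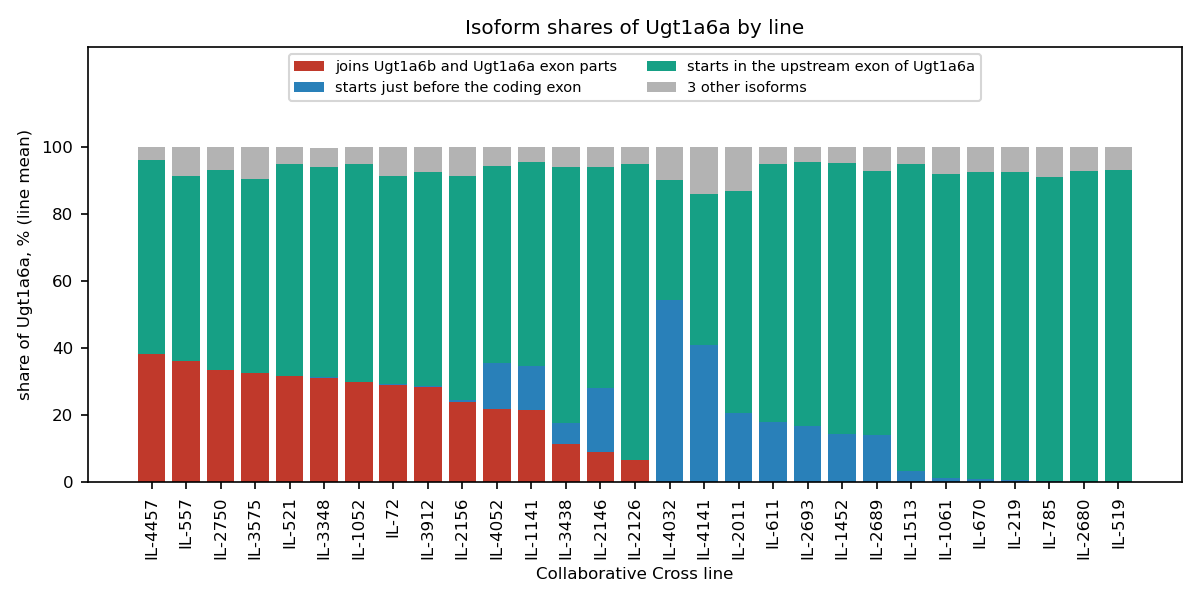
Share of Ugt1a6a in percent (vertical axis from 0, line means) taken by the joined isoform ENSMUST00000169501, by ENSMUST00000014263, by ENSMUST00000113134 and by 3 other isoforms, for 29 lines ordered by the joined isoform. The joined isoform reaches 38.1% in IL-4457 and is at 0 in the 14 lines on the right, among them IL-4032, where ENSMUST00000014263 takes 54.3%.

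The genes outside the locus whose line means ranked most like those of a member were named as a description over 29 lines and 11277 genes, without p-values. For Ugt1a10 they were Armc9 (rho = 0.788, at a mean of only 1.61 FPKM), App (0.719) and Wdfy1 (0.688). These rho run over lines of both levels of Ugt1a10, and the part of its step in them was not tested. Armc9 lies 1.78 Mb and Wdfy1 10.18 Mb from the locus on chromosome 1. For Ugt1a6b they were Neu2 (0.687, at a mean of only 0.97 FPKM), which lies 0.46 Mb from the locus, Cyp3a16 (0.668) and the predicted gene Gm13341 (0.656). Of all genes compared, 5.74% are on chromosome 1. For Ugt1a9 they were 2410006H16Rik (0.794), Txnl4a (0.776) and Arl6ip5 (0.773), and for Ugt1a1 they were Abca8a (0.713), Fmo1 (0.699) and Acot1 (0.685). Fmo1 is also on chromosome 1, but 74.64 Mb from the locus. For Ugt1a6a they were Rufy3 (0.703), Zcchc6 (0.701) and Itm2b (0.666). For Ugt1a5 they were Pmf1 (0.718), F2, which encodes prothrombin (0.717), and Ptpn1 (0.688), and for Ugt1a7c Apon (0.586), Dap (0.579) and the complement inhibitor Cfi (0.556).

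The members stood among other genes of glucuronidation as follows. Of 13 further UGT genes listed, 12 were found, 11 could be tested and all 11 differed among lines in edgeR, against 88.5% of all genes. Among genes with a mean of at least 2 FPKM and no line at 0, the median ratio between the highest and the lowest line mean was 4.37 in this list, 8.44 over 7 members and 2.42 over 8535 genes. Ugt2b37 had the largest ratio in the list (119, from 0.41 to 48.6 FPKM) and Ugt2b36 the smallest (2.11), while Ugt2b38 was listed at 0 in IL-2689 and has none. Among the members, the median of 8.44 is the ratio of Ugt1a5, whose highest line, IL-3575, included the mouse with pancreatic markers. Ugt1a7c had a ratio of 57.5, with its lowest line, IL-1452, at 0.09 FPKM in 1 mouse.

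Each count called in the lists that follow is near the 88.5% of all genes and is no result about its list. The calls rest on the 21 lines with mates, whereas ranges and ratios cover all 29 lines, including those of 1 mouse. All 3 genes of UDP-glucuronate supply were called. Ugdh, which makes UDP-glucuronate, ranged from 36.0 FPKM in IL-1452 to 126 in IL-4032, a ratio of 3.5. Both are lines of 1 mouse and were not part of its edgeR test (adjusted p = 1.93e-05). Slc35d1, which carries UDP-glucuronate into the endoplasmic reticulum, varied by a ratio of 2.16. All 8 genes of haem breakdown and bilirubin handling were called, with the largest ratio for Hmox1, which opens the haem ring (6.91), and the smallest for Blvra, a biliverdin reductase (1.84). Gusb, which removes glucuronic acid again, ranged from 7.03 to 15.5 FPKM.

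All 10 regulators listed were called, again beside 88.5% of all genes. Nr1i3, the constitutive androstane receptor, had the largest ratio (7.58, from 13.8 FPKM in IL-519 to 104 in IL-4032, a line of 1 mouse). Arnt, the partner of the aryl hydrocarbon receptor, had the smallest (1.63). Nr1i2, the pregnane X receptor, varied by a ratio of 3.6 and Ahr, the aryl hydrocarbon receptor, by 4.15. Of 16 target genes of these regulators 15 were tested and 14 were called, Cyp1b1 being the exception (adjusted p = 0.249 in edgeR, at a mean of 0.125 FPKM). Among those with a mean of at least 2 FPKM, Cyp2b9 had the largest ratio, with 0.01 FPKM in IL-1513 and 170 in IL-2126. The latter is a line of 1 mouse. Txnrd1 had the smallest ratio (2.05).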

How the data were processed

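The authors aligned paired reads of 50 bases from a stranded library to the C57BL/6J-based mouse genome (mm9) with the Ensembl annotation, using RSEM version 1.2.18 with Bowtie 2. CC lines carry segments of other strains, and the effect of this on mapping was not tested. The authors deposited, per gene and per isoform, expected counts (estimated, unscaled fragments), TPM and FPKM (both scaled by RSEM for length and depth) and the percent of each gene taken by an isoform. Reads and genotypes were not used here. Exons and sequences came from the NCBIM37 genome and its GENCODE annotation.

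Expected counts were rounded and tested with edgeR 4.0.16 (TMM, its expression filter), with limma 3.58.1 and DESeq2 1.42.0 as alternatives. Correlations and the order of levels used 29 line means and 100000 permutations (exact for 7 lines). Values for intraclass correlations were rounded to bins of 1/200 of the maximum, at least 0.5 wide, with 12 levels required. Where a mouse was left out, edgeR kept the genes and dispersion trend of all mice. The scripts were tested on simulated data. Calculations used R 4.3.3, Python 3.11.15, numpy 2.4.6, scipy 1.17.1, pandas 2.3.3, matplotlib 3.10.9 and Biopython 1.88.

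The members, gene lists and tests were chosen with earlier results of these data known. Named are all members, their isoforms with a mean of at least 5%, the 3 genes outside the locus ranked most alike for each member with a highest FPKM of at least 2, and from each list the genes with the largest and smallest ratio of line means, with Ugdh, Gusb, Nr1i3, Nr1i2 and Ahr. ENSMUST00000113137, with a mean below 5%, Ugt2b38 and Cyp1b1 were named after their values were seen. Replicate numbers only name the mice. Mice are labelled as separate animals. Depth limits the precision of low members, and no counting interval was computed because the counts are estimates.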

Additional observations from a re-analysis of the deposited data

Results flagged for a closer look

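Ugt1a8, a further gene of the locus that is not among the 8 members, was listed with up to 11.3 estimated fragments in a mouse, the single mouse of IL-2126, at a highest level of 0.25 FPKM. It was above 0 in 23 of 55 mice and above 3 fragments, the limit that a count of 0 allows, in 8. It is pointed out because it is signal in a gene that no comparison used. Its part in the reads of closely related variable exons was not tested.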

How the results depend on the processing

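The count of 7 members differing among lines was the same with DESeq2, with limma, with other size factors, under both other filters, without IL-1052 and IL-2750, with isoforms given to the member in whose exon they start and without each of the 47 mice (range 7 to 7). Ugt1a10 was among the 9 smallest p-values in all these settings. Among the pathway lists, the count of target genes fell from 14 to 9 when at least 10 expected counts were required in every mouse, which left 9 of them to test. Over the alternatives the called genes of other UGT families ranged from 8 to 12 and the regulators from 9 to 10. Leaving out each of 47 mice gave ranges of 11 to 11, 3 to 3, 8 to 8, 10 to 10 and 14 to 14 for the 5 lists. The number of related pairs without Ugt1a10 was 1, and it was 2 in the 21 lines with at least 2 mice (Ugt1a6a with Ugt1a5, r = 0.589, permutation test, adjusted p = 0.0493) and 3 with isoforms given to the member in whose exon they start, which moves the joined isoform to Ugt1a6b. It was 1 to 1 without each of the 55 mice. Ugt1a9 and Ugt1a6b remained related in the main and all alternative settings, with r from -0.804 to -0.555. This range does not cover the runs with a mouse left out. The 5 separated pairs in the order of levels became 4 with untransformed FPKM, without IL-1052 and IL-2750 and in the 21 lines. Ugt1a6a above Ugt1a6b was the pair lost in each (permutation test, adjusted p = 0.083, 0.0565 and 0.132), and with untransformed FPKM Ugt1a6b and Ugt1a10 also could not be separated (permutation test, adjusted p = 0.559) while Ugt1a9 and Ugt1a1 could (permutation test, adjusted p = 0.0341). The cause was not tested. No relation with body weight or age passed under any alternative. Intraclass correlations of untransformed FPKM were 0.981 for Ugt1a10, 0.962 for Ugt1a9 and 0.844 for Ugt1a1, but 0.343 for Ugt1a5 and 0.439 for Ugt1a7c. No paired analysis was possible because the replicate numbers were given in accession order and pair no mice across lines. Low counts limit Ugt1a2 and the low level of Ugt1a10.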
